A study of Mus musculus with 6 samples.

Results

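The expression of 10 chemokine genes was read in mouse liver in which an active form of IRF3 had been switched on in hepatocytes. The genes, listed by symbol, were Cxcl1, Cxcl9, Cxcl10, Cxcl11, Cxcl12, Cxcl13, Cxcl16, Ccl2, Ccl4 and Ccl5. The list was drawn up with earlier results of these data known. Of the 10 genes, 9 have a row among the 20894 genes of the deposited count table. Cxcl11, which the mouse annotation lists as a polymorphic pseudogene, was not analysed here. Every mouse, controls included, carried the Irf3LSL-2D allele, in which a stop cassette that Cre removes precedes the 2D form of IRF3. The IRF3-2D group received AAV8-TBG-Cre and the Ctrl group AAV8-TBG-GFP. TBG is a hepatocyte promoter, so the allele was to be switched on in hepatocytes only. Both groups were injected intraperitoneally with 3 g/kg ethanol, and liver was taken 2 h later. Each group held 3 libraries, and the sources used here give no age, sex or strain background. No group without ethanol, and none with Cre but without the allele, was analysed here, so effects of ethanol were not compared, and those of Cre or GFP cannot be told apart from those of the allele.

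Chemokines are small secreted proteins that attract leukocytes by binding receptors on them. Cxcl9, Cxcl10 and Cxcl11 are induced by interferons and share the receptor Cxcr3 of T and NK cells, and Cxcl10 and Ccl5 are textbook targets of IRF3. Cxcl1 and Ccl2, which draw neutrophils and monocytes, are classical targets of NF-kappaB, while Cxcl12 is a homeostatic chemokine made in liver without inflammation.

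The libraries held 12054096 to 14830629 estimated counts each, and between 10333 and 10846 genes reached 10 counts. Levels are CPM, counts scaled to a library of fixed size, after TMM scaling, which sets libraries on a common scale through the bulk of the genes. Differences were tested with edgeR's quasi-likelihood F-test over 10802 genes, with Benjamini-Hochberg adjustment, and a gene was called at an adjusted p under 0.05. Of these genes 26.3% were called, 13.2% higher and 13.1% lower in IRF3-2D liver, so a call is common in this comparison. Irf3 itself, which checks the labels, rose 2.41-fold (adjusted p = 0.00152 by edgeR), from 42.6, 46.4 and 60.3 CPM in the Ctrl libraries to 117.5, 106.3 and 136.6 CPM in the IRF3-2D libraries. Some genes stood near 0 in tissue that is known to express them, such as Adam10 with 0 counts and Cd68 with at most 2 counts in any library. A low count may therefore miss some transcripts of a gene. All 12 hepatocyte markers were tested, and their summed level was 155460.5 to 208967.2 CPM in Ctrl and 81604.2 to 93161.8 CPM in IRF3-2D, with 10 of the 12 called lower and 1, Ttr, called higher (median log2 fold change -1.01). With library totals alone these sums were 127691.3 to 183495.1 CPM and 99932.8 to 105017.4 CPM, which did not overlap either.

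Of the 9 chemokines with a row, 6 passed the filter on low counts. Ccl5 was called higher and Cxcl1 and Cxcl12 were called lower in IRF3-2D liver, while Cxcl9, Cxcl13 and Cxcl16 were not called. Cxcl10, Ccl2 and Ccl4 stayed under the filter. The filter asked for a level worth about 10 counts in at least 3 libraries. Ccl5 met it in 3 IRF3-2D libraries and 1 Ctrl library, and Cxcl1 in 3 Ctrl libraries and 1 IRF3-2D library, so these had to be high in at least 1 group to be tested. The counts are therefore given gene by gene and not read as a share. The median log2 fold change of the 6 was -0.28, beside 0.03 for all tested genes.

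The sequence upstream of 5 of the 9 genes is in the RefSeq promoter table used here (build GRCm38.p6), which has no entry for Cxcl16, Ccl2, Ccl4 or Ccl5. Printed are the 240 bases from 250 to 11 before the annotated start, 5′ to 3′ on the gene's strand, for Cxcl10 and Cxcl9 as the pair of interferon chemokines, and for Cxcl1 and Cxcl12 as the members called lower. The capitals mark matches, on either strand, to an interferon-stimulated response element core (GAAA and GAAA with any 2 bases between them) or to the NF-kappaB consensus.
Cxcl10: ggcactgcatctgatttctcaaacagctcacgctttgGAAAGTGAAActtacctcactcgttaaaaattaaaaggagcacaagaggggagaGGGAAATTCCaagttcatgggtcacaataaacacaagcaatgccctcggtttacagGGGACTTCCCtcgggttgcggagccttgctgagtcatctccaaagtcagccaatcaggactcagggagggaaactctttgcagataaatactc
Cxcl9: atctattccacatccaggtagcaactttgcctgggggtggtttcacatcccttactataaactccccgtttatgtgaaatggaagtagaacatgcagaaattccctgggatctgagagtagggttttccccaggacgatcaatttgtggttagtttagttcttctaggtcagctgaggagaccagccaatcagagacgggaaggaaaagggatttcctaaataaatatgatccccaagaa
Cxcl1: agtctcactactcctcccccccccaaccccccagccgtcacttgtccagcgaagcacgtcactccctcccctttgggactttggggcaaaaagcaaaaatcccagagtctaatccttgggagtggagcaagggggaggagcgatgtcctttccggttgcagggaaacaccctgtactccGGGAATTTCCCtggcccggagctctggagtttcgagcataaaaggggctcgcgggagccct
Cxcl12: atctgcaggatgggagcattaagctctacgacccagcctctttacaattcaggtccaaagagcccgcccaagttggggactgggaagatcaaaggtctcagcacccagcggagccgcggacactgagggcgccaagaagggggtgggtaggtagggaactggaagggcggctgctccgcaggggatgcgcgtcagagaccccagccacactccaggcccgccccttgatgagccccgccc
The Cxcl10 window (chr5:92348900-92349139, minus strand) holds the response element core GAAAGTGAAA, from 213 to 204 bases before the start, and 2 matches to the NF-kappaB consensus. These are GGGAAATTCC from 159 to 150 bases and GGGACTTCCC from 103 to 94 bases before the start. The Cxcl1 window (chr5:90890995-90891234, plus strand) holds 1 stretch, GGGAATTTCCC, from 71 to 61 bases before the start, that matches the NF-kappaB consensus on both strands in overlapping positions. The windows of Cxcl9 (chr5:92328090-92328329, minus strand), Cxcl12 (chr6:117168285-117168524, plus strand) and Cxcl13 hold no match to either motif. Among 32851 mouse promoter windows of the same length, 2.87% hold the response element core and 3.75% the NF-kappaB consensus. A match describes letters in the sequence and no measured binding.

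The interferon-induced CXCR3 ligands Cxcl9 and Cxcl10 were not called in any fit. Cxcl10 (ENSMUSG00000034855, chromosome 5, 92346638 to 92348889, minus strand in GENCODE M21 on GRCm38), whose promoter holds both kinds of motif, had 0 counts in each Ctrl library, against 0, 0 and 4 counts in IRF3-2D. The limit set by a count of 0, taken as 3 counts, lay between 0.194 and 0.252 CPM on the TMM scale, depending on the library, and covers counting error only. The gene stood at or near that limit in both groups, so no fold change is given. In a fit without the filter its adjusted p was 0.402 by edgeR. The gene has 4 annotated transcripts, 2 of them coding, and lies within the span of Art3 on the opposite strand. The strand setting of the counting is not stated, so reads of the 2 genes may not be separated, and the same holds for Cxcl16 with Zmynd15 and for Ccl2 with Gm17268.

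Cxcl9 (ENSMUSG00000029417, chromosome 5, 92321347 to 92328079, minus strand), its neighbour 20.8 kb away, was readily detected. Its counts were 349, 136 and 144 in Ctrl, against 237, 147 and 241 in IRF3-2D. The groups overlapped, with Ctrl replicate 1 above every other library. Its level was 17.1 ± 9.91 CPM in Ctrl and 13.7 ± 3.24 CPM in IRF3-2D (SD, n = 3 each). The log2 fold change was -0.32, with a 95% confidence interval from -1.24 to 0.61 (adjusted p = 0.598 by edgeR). This interval does not include a 2-fold rise, and without Ctrl replicate 1 the estimate turned to 0.27. With library totals in place of TMM it was 0.12.

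Ccl5, also called RANTES, attracts T cells, NK cells and monocytes and was the member called higher. Ccl5 (ENSMUSG00000035042, chromosome 11, 83525778 to 83530518, minus strand) had 14, 10 and 8 counts in Ctrl, against 100, 120 and 79 in IRF3-2D. Every IRF3-2D library stood above every Ctrl library, as was the case for 23.7% of all tested genes. The level rose from 0.87 ± 0.26 CPM to 6.59 ± 1.48 CPM (SD, n = 3 each), or 7.52-fold. The log2 fold change was 2.91 (SE 0.36, 95% confidence interval 2.06 to 3.76, adjusted p = 0.00157 by edgeR). It was called in all 14 alternative fits, at 2.72 to 3.37 on the log2 scale. Ccl5 has 1 coding transcript, and 0.54% of the 31-base words of its transcripts also occur in other genes.

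**Figure D1:**
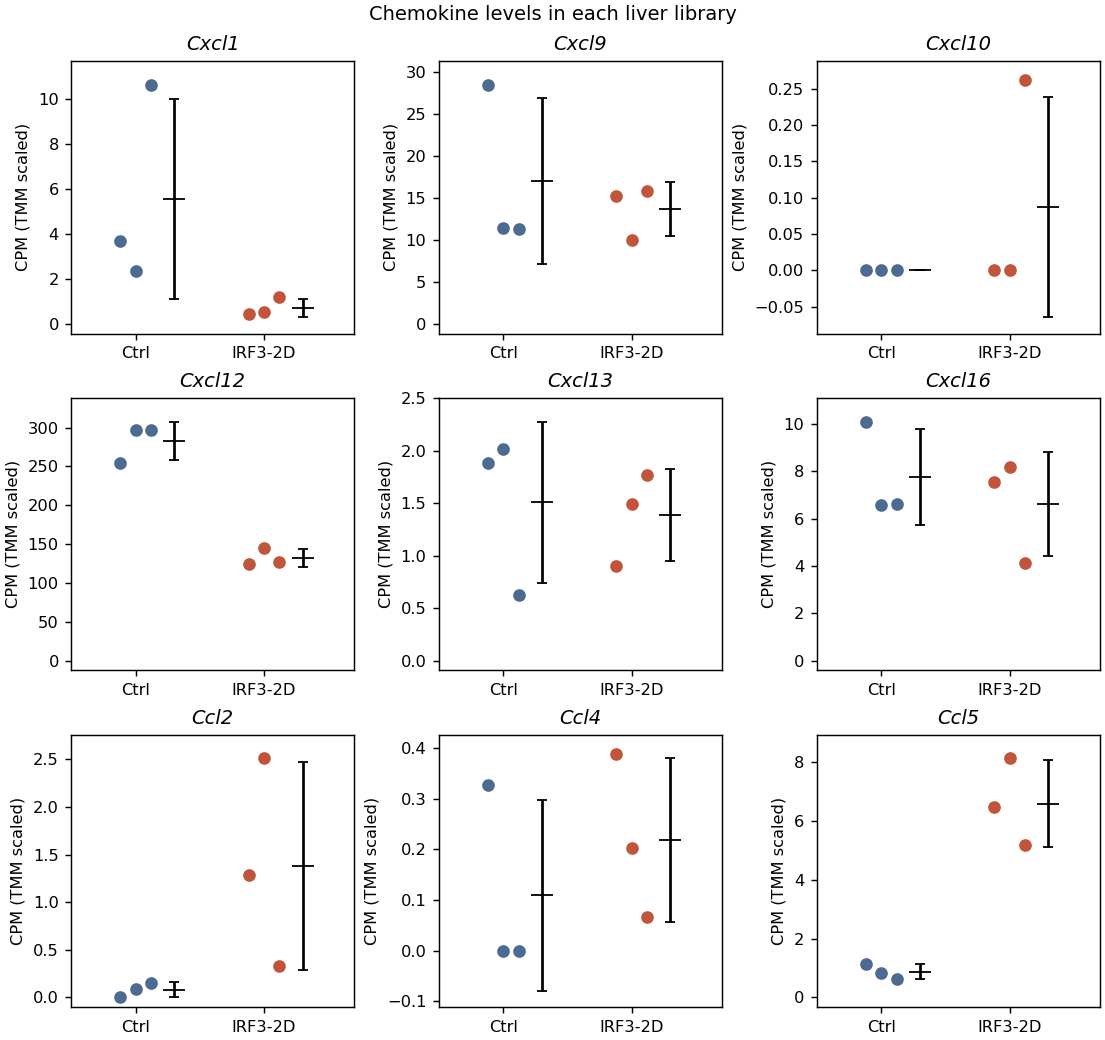
Level of each of the 9 chemokines with a row in the table, in TMM-scaled CPM on a linear axis of its own, with 1 point per library and the group mean ± SD as a bar, whose lower end passes 0 for Cxcl10 and Ccl4. Ccl5 lies higher and Cxcl1 and Cxcl12 lie lower in all 3 IRF3-2D libraries, Cxcl9, Cxcl13 and Cxcl16 overlap, and Cxcl10, Ccl2 and Ccl4 are drawn at levels that rest on few counts.

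The inflammatory CC chemokines Ccl2 and Ccl4 were at very low levels in Ctrl liver. Ccl2 (ENSMUSG00000035385, chromosome 11, 82035571 to 82037453, plus strand), the main ligand of the monocyte receptor Ccr2, had 0, 1 and 2 counts in Ctrl, against 20, 37 and 5 in IRF3-2D. Its groups did not overlap, but the IRF3-2D libraries spread widely, with replicate 3 close to Ctrl. Summed over the libraries these are 3 counts against 62, a depth-scaled ratio of 16.8 with a 95% interval from 5.48 to 83.6 that covers counting error only. In the fit without the filter, where 16.3% of 15609 genes were called, Ccl2 had an adjusted p of 0.0463 by edgeR. Of 12 fits without the filter, that one included, 6 called it. With 1 library left out it was called only without IRF3-2D replicate 3 (log2 fold change 4.40, adjusted p = 0.0296 by edgeR). The other left-out libraries gave 3.18 to 4.78 on the log2 scale, with adjusted p up to 0.194 by edgeR.

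Ccl4 (ENSMUSG00000018930, chromosome 11, 83662584 to 83664683, plus strand), an inflammatory chemokine of macrophages and T cells, had 4, 0 and 0 counts in Ctrl, against 6, 3 and 1 in IRF3-2D. The groups overlapped, and the ratio of summed counts was 2.03 with a 95% interval from 0.585 to 8.87. All 4 Ctrl counts were in replicate 1, and the fitted log2 fold change without the filter, 0.96, moved between 0.27 and 4.68 when single libraries were left out, the highest without Ctrl replicate 1. Ccl4 was not called in any fit that gave it a value. A difference of moderate size in Ccl4 was not detectable at this depth.

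Cxcl1 (ENSMUSG00000029380, chromosome 5, 90891241 to 90893115, plus strand), a neutrophil attractant that binds Cxcr2, was called lower. Ctrl held 45, 28 and 135 counts, and IRF3-2D held 7, 8 and 18. All Ctrl libraries stood above all IRF3-2D libraries, as for 21.2% of all tested genes, and Ctrl replicate 3 stood far above the other 2. The level fell from 5.53 ± 4.4 CPM to 0.725 ± 0.396 CPM (SD, n = 3 each). The fall was 7.55-fold, with a log2 fold change of -2.92 (SE 0.69, 95% confidence interval -4.55 to -1.28, adjusted p = 0.0213 by edgeR). Leaving out Ctrl replicate 3 ended the call (log2 fold change -2.04, adjusted p = 0.0571), as did leaving out IRF3-2D replicate 1 or 2 (-2.67 and -2.75, adjusted p = 0.0759 and 0.0768, all by edgeR). It was also lost with limma-voom (-2.73, adjusted p = 0.0602).

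The other neutrophil attractants near Cxcl1 gave little to set beside it. Cxcl2 had at most 8 counts in any library, Cxcl3 at most 1 and Cxcl5 at most 3. Of the 3 tested neutrophil markers none was called by edgeR, DESeq2 or limma-voom, and none had an unadjusted p under 0.05 by edgeR. The summed level of the 11 neutrophil markers was 7.91 to 13.5 CPM in Ctrl and 9.64 to 15.3 CPM in IRF3-2D liver. Of the markers under the filter, Mpo, which neutrophil precursors express, had 0 counts in all libraries. Mmp8 had 1, 2 and 2 counts in Ctrl, against 16, 17 and 7 in IRF3-2D liver, without overlap. In the fit without the filter Mmp8 had an adjusted p of 0.0628 by edgeR. Cxcr2, the receptor of these attractants, had a log2 fold change of -0.12 and was not called.

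Cxcl12 (ENSMUSG00000061353, chromosome 6, 117168535 to 117181367, plus strand), which retains and guides leukocytes through Cxcr4, was the most abundant member per kilobase of transcript in both groups. Ctrl held 3113, 3527 and 3807 counts, and IRF3-2D held 1916, 2147 and 1943. The groups were far apart relative to their spread, at 254.3, 296.7 and 297.5 CPM against 123.9, 145.4 and 127.3 CPM. The fall was 2.14-fold, with a log2 fold change of -1.10 (SE 0.11, 95% confidence interval -1.35 to -0.85, adjusted p = 0.00059 by edgeR). All 14 alternative fits called it. The value was -0.64 with library totals alone, a scaling that moved the median log2 fold change of all genes from 0.03 to 0.49, and -1.17 to -1.06 when single libraries were left out.

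In bulk liver, fewer cells of a type and less RNA per cell cannot be told apart. Cxcl12 is known from stellate and endothelial cells of the liver, so their markers are given here. Of all tested genes 13.1% were called lower. Among 12 tested markers of sinusoidal endothelium, 5 (41.7%) were called lower and none higher (Ehd3, Tie1, Ptprb, Oit3 and Kdr). None of these 5 calls held with library totals alone, where Ehd3 was at -0.28 (adjusted p = 0.0892 by edgeR) and the others were at -0.09 to -0.02. Of the 5, only Ehd3 kept its call whichever library was left out. The summed level of 14 such markers was 562.8 to 582.9 CPM in Ctrl and 371.9 to 495.0 CPM in IRF3-2D liver. With library totals alone the sums overlapped, at 478.8 to 494.2 against 417.0 to 584.7 CPM. Of 11 stellate cell markers 1 (9.1%) was called lower and none higher, and their sums overlapped (335.4 to 408.8 CPM in Ctrl, 281.4 to 384.0 CPM in IRF3-2D). The called stellate marker, Reln, was at -0.72, and at -0.27 without a call with library totals alone. Hepatocyte markers were lower too, with the median of -1.01 given above. The part of any of these cells in the lower Cxcl12 level was not tested.

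Cxcl13 and Cxcl16 completed the tested members. Cxcl13 (ENSMUSG00000023078, chromosome 5, 95956951 to 95961068, plus strand), which draws B cells, had 23, 24 and 8 counts in Ctrl, against 14, 22 and 27 in IRF3-2D. The groups overlapped, and the log2 fold change of -0.12 had a 95% confidence interval from -1.41 to 1.18 (adjusted p = 0.896 by edgeR). Cxcl16 (ENSMUSG00000018920, chromosome 11, 70453983 to 70459984, minus strand) exists as a membrane-bound and a shed form and binds Cxcr6 of liver-resident T and NKT cells. Ctrl held 124, 78 and 85 counts and IRF3-2D held 117, 121 and 63, which overlapped. Its log2 fold change was -0.23, with a 95% confidence interval from -0.99 to 0.53 (adjusted p = 0.64 by edgeR). Differences within these intervals remain possible in both genes.

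**Figure D2:**
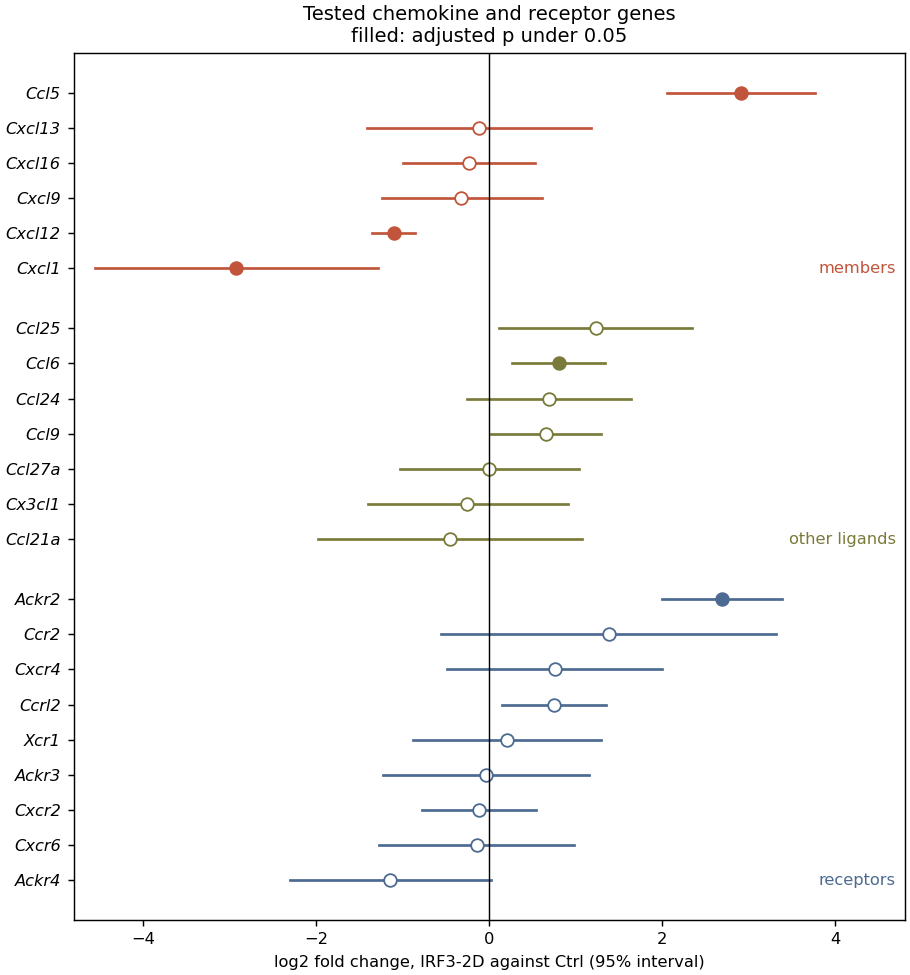
Log2 fold change of IRF3-2D against Ctrl with its 95% confidence interval from edgeR, for the tested members and the tested genes of the ligand and receptor lists (1 receptor is not drawn), coloured by list, with called genes as filled points. The intervals of Ccl5, Ackr2 and Ccl6 lie wholly above 0, as do those of Ccl9, Ccl25 and Ccrl2, which are not called after adjustment. Those of Cxcl1 and Cxcl12 lie wholly below 0, while those of Cxcl9, Cxcl13 and Cxcl16 span 0.

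Dividing the levels by transcript length allows the members to be ordered within a group. In Ctrl liver Cxcl12 led at 90.3 ± 7.89 CPM per kb, far above Cxcl9 at 5.91 ± 3.43 and Cxcl1 at 5.8 ± 4.62, whose ranges overlapped. Then came Cxcl16 at 2.88 ± 0.755, Ccl5 at 1.64 ± 0.489 and Cxcl13 at 1.31 ± 0.667 CPM per kb (SD, n = 3 each). The range of Cxcl1 also overlapped that of Cxcl16, and those of Ccl5 and Cxcl13 overlapped, while Ccl4, Ccl2 and Cxcl10 stood below 0.2 CPM per kb on average. In IRF3-2D liver Ccl5 was second, at 12.4 ± 2.78 CPM per kb, behind Cxcl12 at 42.2 ± 3.69 and above Cxcl9 at 4.74 ± 1.12, with no overlap on either side. Cxcl1 stood at 0.761 ± 0.416 CPM per kb, below Cxcl16 at 2.46 ± 0.811 with no overlap. These levels use the median length of coding transcripts. With the union of exons the value of Cxcl12 in Ctrl was 34.6 CPM per kb, and it still led the members in both groups.

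Most other chemokine ligands were near the limit of detection. Of 30 other ligands 29 had a row, and 19 had under 10 counts in every library. The filter was passed by 7, with a median log2 fold change of 0.66. Of these 7, 1 was called higher and none lower (14.3%, beside 26.3% of all tested genes called). The one called was Ccl6, a macrophage chemokine of rodents, with 186, 149 and 145 counts in Ctrl and 354, 429 and 249 in IRF3-2D liver. It rose 1.75-fold (log2 fold change 0.81, adjusted p = 0.0396 by edgeR). Its call was lost with limma-voom and in 4 of the fits that left out 1 library, those without replicate 2 or 3 of Ctrl or replicate 1 or 2 of IRF3-2D (adjusted p up to 0.115 by edgeR). The related Ccl9 was at 33.0 ± 13.8 CPM per kb in Ctrl and 52.0 ± 6.66 CPM per kb in IRF3-2D liver (SD, n = 3 each). Its log2 fold change of 0.66 was not called (adjusted p = 0.121 by edgeR), with Ctrl replicate 1 at 147.0 CPM above the lowest IRF3-2D library at 135.7 CPM. Without Ctrl replicate 1 it was 1.05 (adjusted p = 0.00304 by edgeR), and it was also called with library totals alone (1.11, adjusted p = 0.018 by edgeR) and by DESeq2 (0.63, adjusted p = 0.0499). The log2 fold changes of Ccl24 (0.69), Ccl25 (1.23), Ccl21a (-0.45), Ccl27a (0.00) and Cx3cl1 (-0.25) were not called. Ccl25, whose groups did not overlap, was called with library totals alone (1.68, adjusted p = 0.0205 by edgeR). Ccl21a and Ccl27a share 80.6% and 56.96% of their sequence words with near copies.

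Ccl5, Ccl6, Ccl9, Ccl3 and Ccl4 lie together on chromosome 11. Of 15 other genes tested within 500 kb of Ccl5, 5 were called higher and none lower, beside 13.2% of all tested genes called higher. They were Ccl6 at 62.6 kb, the Schlafen genes Slfn2 and Slfn4, Wfdc21 (1.73-fold) and Heatr6 (3.06-fold, log2 fold change 1.61, adjusted p = 0.00041 by edgeR). Ccl3, at 118.8 kb, had counts in 1 library only, with 3 in IRF3-2D replicate 2. Around Cxcl9, 2 of 11 other tested genes were called higher and 2 lower, and around Cxcl1, 1 of 6 was called higher and 3 lower. The genes of a cluster are not independent, and these counts describe the regions without a test.

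**Figure D3:**
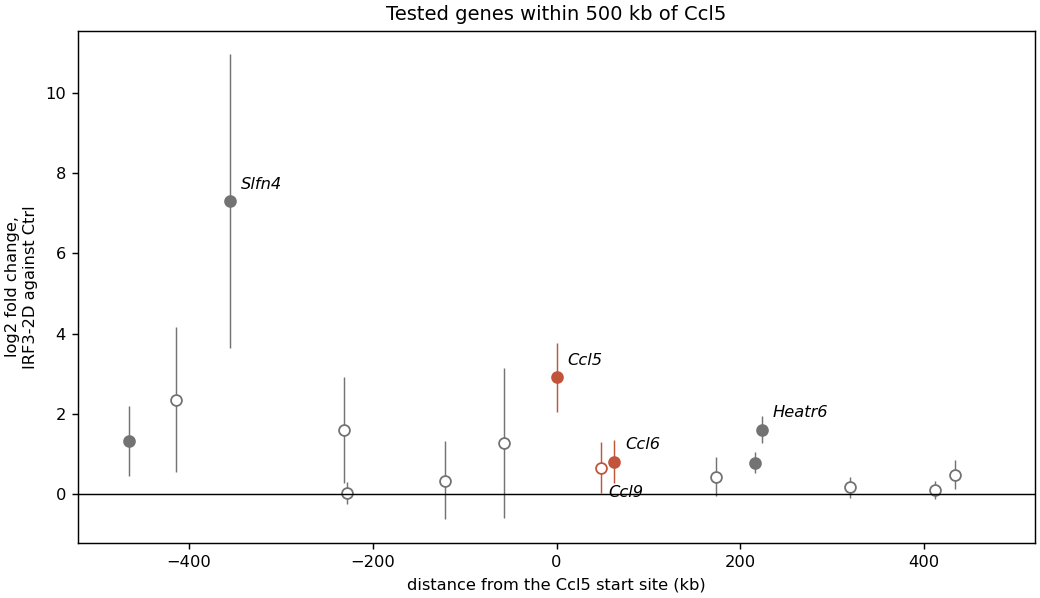
Log2 fold change of the tested genes within 500 kb of Ccl5 against their distance from Ccl5 in kb, with 95% confidence intervals and called genes as filled points. Besides Ccl5, 5 genes are called higher and none lower, Ccl6 among them, while Ccl9, 48.1 kb away, is not called. The fitted value of Slfn4 rests on Ctrl libraries at or near 0 and is no measure of its fold.

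Among the receptors, 10 of 23 were tested, 1 was called higher and none lower, with a median log2 fold change of 0.31. The called gene was Ackr2, a decoy receptor that takes up and degrades inflammatory CC chemokines, Ccl2 and Ccl5 among them, without signalling. Ctrl held 16, 31 and 36 counts, and IRF3-2D held 237, 217 and 207. The groups were far apart, and the rise was 6.45-fold, from 2.24 ± 0.817 CPM to 14.5 ± 0.893 CPM (SD, n = 3 each). The log2 fold change was 2.69 (SE 0.29, adjusted p = 0.00094 by edgeR), and all 14 alternative fits called it. Of the signalling receptors, Ccr2, the receptor of Ccl2, had 37, 16 and 13 counts in Ctrl and 48, 146 and 16 in IRF3-2D liver. It peaked in IRF3-2D replicate 2, the library with the highest Ccl2 count. Cxcr3, the receptor of Cxcl9 and Cxcl10, had 1 to 6 counts in any library and was not tested. The log2 fold changes of Ccr2 (1.38), Ccrl2 (0.75), Cxcr4 (0.76), Cxcr6 (-0.14), Ackr3 (-0.03), Ackr4 (-1.14) and Xcr1 (0.21) were not called. Ccrl2 was called with library totals alone (1.21, adjusted p = 0.0112 by edgeR) and without IRF3-2D replicate 3 (0.92, adjusted p = 0.0368 by edgeR).

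Among enzymes that trim chemokines, those called were lower. Mmp8, of the same list but under the filter, had more counts in each IRF3-2D library (16, 17 and 7) than in Ctrl (1, 2 and 2). Of 4 tested processing proteases 3 were called lower and none higher (75.0%, beside 26.3% of all tested genes called), with a median log2 fold change of -0.50. Dpp4, which inactivates Cxcl10 and Cxcl12 and alters Ccl5 by removing their first residues, fell 1.58-fold, from 182.2, 208.8 and 221.6 CPM to 122.8, 123.2 and 140.5 CPM (adjusted p = 0.00449 by edgeR). Cpn2, the regulatory subunit of carboxypeptidase N, fell 1.85-fold (adjusted p = 0.00161 by edgeR). Its catalytic subunit Cpn1 fell 1.26-fold (log2 fold change -0.34, adjusted p = 0.0418 by edgeR), and that call was lost when any 1 library was left out. With library totals alone Dpp4 was at -0.21 (adjusted p = 0.114 by edgeR) and Cpn1 at 0.11, so the direction of Cpn1 rests on the scaling. These genes moved beside the 10 hepatocyte markers called lower, and the part of that change in their levels was not tested.

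Several regulators of chemokine transcription were higher. Of 16 tested factors 5 were called higher and none lower (31.2%, beside 26.3% of all tested genes called), with a median log2 fold change of 0.17. Besides Irf3 these were Irf1 (2.00-fold), Irf7 (3.24-fold), Irf9 (1.68-fold) and Stat2 (3.01-fold, adjusted p = 0.00025 by edgeR), which are themselves interferon-inducible. Irf7, which switches on the type I interferon genes, went from 147, 131 and 126 counts in Ctrl to 467, 566 and 582 in IRF3-2D liver. The NF-kappaB subunit Rela and its inhibitor Nfkbia, a target of that pathway, had log2 fold changes of 0.20 and -0.19 and were not called. Of 7 tested regulators of mRNA decay, which set the life of chemokine transcripts, none was called by edgeR as fitted here or by limma-voom, and 3 had an unadjusted p under 0.05 by edgeR. DESeq2 called 1 higher, as did edgeR without Ctrl replicate 2, and edgeR with library totals alone called 3 higher. Zfp36l1, with the smallest p of the list, had a log2 fold change of 0.44 (adjusted p = 0.09 by edgeR).

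Cytokines that induce chemokines moved separately from one another. Of 4 tested, 1 was called higher and 1 lower, with a median log2 fold change of -0.22. Il33, an alarmin of the IL-1 family, had 55, 36 and 45 counts in Ctrl, against 1781, 1663 and 1724 in IRF3-2D. This was a rise of 30.8-fold (log2 fold change 4.94, SE 0.14, adjusted p = 5.2e-06 by edgeR), larger than that of any chemokine or receptor that passed the filter. Il18, which drives interferon gamma in T and NK cells, fell 2.13-fold (adjusted p = 0.00394 by edgeR). Ifnb1, Ifna4, Ifnl2, Ifnl3 and Il17a had 0 counts in every library, Ifng had 3 counts in IRF3-2D replicate 2 alone, Il6 at most 5 and Tnf at most 2. Of 10 tested cytokine receptors 1 was called higher and 3 lower (40.0%, beside the same 26.3%), with a median of -0.11. Il1rap (2.23-fold) and Il6ra (2.26-fold) fell, as did Il6st (1.42-fold), whose value was -0.05 on the log2 scale with library totals alone. Il17ra rose 2.19-fold (adjusted p = 0.0245 by edgeR), a call lost when replicate 2 or 3 of Ctrl or replicate 1 or 2 of IRF3-2D was left out (adjusted p up to 0.088 by edgeR).

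Markers of leukocytes that make Ccl5 and Ccl2 also differed between the groups in part. The summed level of the 14 Kupffer cell and macrophage markers was 601.2 to 705.6 CPM in Ctrl and 1001.4 to 1364.0 CPM in IRF3-2D liver. Of 13 tested, 4 were called higher (Mpeg1, C1qb, Cd5l and C1qa) and none lower, or 30.8%, beside 26.3% of all tested genes called. Mpeg1 and C1qb kept their calls in all 14 alternatives. The call of Cd5l was lost when any 1 library except IRF3-2D replicate 3 was left out (adjusted p up to 0.0978 by edgeR). That of C1qa was lost with RLE and upper-quartile factors, and when replicate 2 or 3 of Ctrl, or 1 or 2 of IRF3-2D, was left out (adjusted p up to 0.138 by edgeR). Without Mpeg1, which is itself known to be interferon-inducible and rose 4.14-fold, the sums were 498.0 to 556.1 and 562.1 to 803.1 CPM, an omission chosen after its value was seen. Clec4f, a defining Kupffer cell marker, was at 134.1, 150.6 and 142.2 CPM in Ctrl and 196.1, 199.0 and 151.7 CPM in IRF3-2D liver (adjusted p = 0.0728 by edgeR), while Cd68 was near 0. The median log2 fold change of the 13 tested was 0.39, but other markers were flat or lower without a call. These were Adgre1 (-0.56), Lyz2 (0.03) and Csf1r (-0.12), whose counts ran from 0 to 388 between libraries. The sums of 8 monocyte and dendritic cell markers were 3.7 to 9.64 and 8.19 to 27.8 CPM, and with library totals alone 3.04 to 8.46 and 9.19 to 34.1 CPM, without overlap. These sums were highest in IRF3-2D replicate 2, where Ccl2 and Ccl5 were also highest. The median log2 fold change of the 7 tested was 1.05. Some of the 7, Ly6c2 among them, reached the filter level mainly or only in IRF3-2D libraries. The filter can therefore raise this median, which is not read as a rise. Ly6c2, a marker of inflammatory monocytes, had 8, 3 and 9 counts in Ctrl and 74, 102 and 27 in IRF3-2D liver, and was the 1 of 7 tested that was called, a call lost with limma-voom (adjusted p = 0.0697). It passed the filter through the 3 IRF3-2D libraries alone, so it had to be high there to be tested, and it belongs to a family of similar genes, so its counts are uncertain. Of 6 tested T and NK cell markers none was called by edgeR, DESeq2 or limma-voom, and none had an unadjusted p under 0.05 by edgeR. The sums of 14 were 9.38 to 15.1 and 14.5 to 17.6 CPM, which overlapped, but 8.09 to 13.3 and 16.5 to 21.6 CPM with library totals alone, which did not. The median log2 fold change of the 6 tested was 0.76. Klrb1c and Gzmb reached the filter level in 3 IRF3-2D libraries but in only 1 Ctrl library, so the filter can raise this median too. Klrb1c, Gzmb and Klrk1 lay higher in every IRF3-2D library than in any Ctrl library, as did 23.7% of all tested genes. Cd4 lay lower, as did 21.2% of them. Cd3g had 0 counts in all libraries. The part of any of these cells in the higher Ccl5 and Ccl2 levels was not tested.

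**Figure D4:**
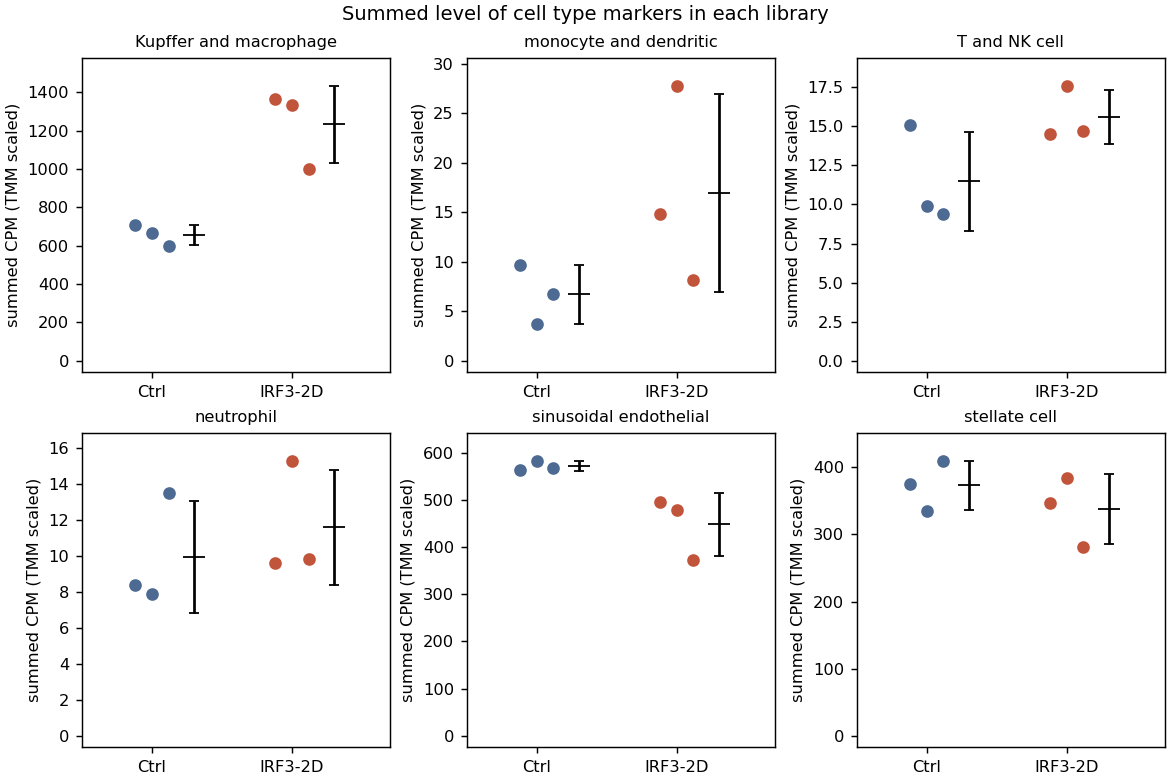
Summed level of the markers of each non-hepatocyte cell type in TMM-scaled CPM on linear axes, with 1 point per library and the group mean ± SD as a bar. The Kupffer cell and macrophage sums of the IRF3-2D libraries lie above those of Ctrl and the sinusoidal endothelial sums lie below, while the T and NK cell, monocyte and neutrophil sums overlap on this scale. With library totals alone the T and NK cell and monocyte sums did not overlap, and the endothelial sums did.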

How the data were processed

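Poly-A RNA of 6 liver samples was sequenced from strand-specific libraries, per the labels' protocols. The deposited table gives estimated counts by gene, whole numbers in every cell and not normalized. Salmon 1.2.1 is named in the submitters' processing notes. The annotation, the strand setting and filters were not given in the sources used here. Of 20894 gene identifiers, 20860 were matched to GENCODE M21 (GRCm38), and 5285 had no count. The labels leave unsaid whether each library is a mouse of its own, so the spread behind the p-values may be technical. Replicates differed by more than sampling noise (chi-square per degree of freedom 18.9 to 110).

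The low-count filter was filterByExpr at its defaults in edgeR 4.0.16 (R 4.3.3), and the fit used TMM scaling and no covariate. In a simulation with 200 changed genes, of 10524 tested, 46.3% of those changed 2-fold and 82.5% of those changed 4-fold were recovered, and 5.3% of calls were false. The simulated libraries had no difference in scaling factors between groups, and in the data 26.3% of tested genes were called. The simulated rates may therefore not hold for this comparison. Alternatives were DESeq2 1.42.0, limma-voom (limma 3.58.1), RLE, upper-quartile and library-total scaling, no filter, a mean count of at least 50, a replicate block and leaving out each library. For members under the filter, the scalings, DESeq2, the block and the left-out libraries were also run without the filter, which was added after seeing the data. Sums of Kupffer cell markers without Mpeg1 were added in the same way. Intervals of count ratios are exact 95% binomial ones. Sequence overlap between genes is the share of 31-base words found in transcripts of another gene. Promoters come from RefSeq.

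The members and the gene lists were chosen with earlier results of these data known. All members were named, as were tested ligands and receptors, except 1 receptor that is not reported here. Other lists could give up to 4 called genes each, by smallest adjusted p, and lists without a call 1 gene as a value, but most hepatocyte and leukocyte markers are given by counts and sums alone. Genes named outside this rule (Cxcr3 and other genes under the filter by their counts, Rela, Nfkbia, Clec4f, Adgre1, Csf1r, Lyz2, Klrb1c, Gzmb, Klrk1, Cd4, Ttr, Kdr and the neighbours of Ccl5) were chosen after their values were seen.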

Additional observations from a re-analysis of the deposited data

How the results depend on the processing

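Of the members, Ccl5 and Cxcl12 kept their direction and call in all 14 alternatives, Cxcl1 kept its call in 9 of 13, and Cxcl9, Cxcl13 and Cxcl16 were not called in any. With library totals alone, 5071 genes were called (4500 higher, 571 lower) against 2844 (1426 and 1418), and the pathway lists had 26 calls (22 higher, 4 lower) against 16 (9 and 7). Leaving out 1 library gave 1785 to 2701 calls (854 to 1330 higher, 931 to 1371 lower). The fewest came without IRF3-2D replicate 2 (1785), and 1835 came without IRF3-2D replicate 1. In the lists these fits gave 13 to 18 calls (7 to 11 higher, 6 to 7 lower). Among members 2 to 3 were called, 1 higher in each fit and 1 to 2 lower. Without the filter 2 members were called higher, Ccl2 being the second. With a mean count of at least 50 only 1 was called lower, because Cxcl1 was then not tested, and limma-voom also called 1. The direction of Cpn1 reversed to 0.11 with library totals alone.

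Deviations from the group mean had correlations of 0.096, -0.0339 and 0.0449 between same-numbered libraries. Between differently numbered libraries they were -0.105 to 0.0636. Each mean rests on 3 libraries, so these values cannot exclude a pairing, and the labels state none. With the replicate block 2166 genes (1038 higher, 1128 lower) and 3 members were called, and for Ccl2 the adjusted p was 0.134 without the filter. The block also ended the calls of Cpn1 (adjusted p = 0.0643), Ly6c2 (0.0573), Ptprb (0.0758) and Oit3 (0.0551).

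Depth limits what can be said of Cxcl10, Ccl4, Ccl2 and the 22 other ligands under the filter.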

Other observations

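Other ligands that stayed under the filter held scattered counts. Of these 22 genes, 4 had 0 counts in all libraries, and their summed counts were 58, 13 and 36 in Ctrl, against 51, 61 and 43 in IRF3-2D. IRF3-2D replicate 2 held more counts than any other library for 5 of them, including all 3 counts each of Ccl3, of Ccl12 and of Ccl17, and 27 counts of Pf4, a platelet chemokine. Ctrl replicate 1 held 25 counts of Ccl28, an epithelial chemokine, while Ctrl replicate 2 and IRF3-2D replicate 2 held 0. Among untested receptors, Ccr1, a receptor of Ccl5 on monocytes, had 7, 0 and 4 counts in Ctrl and 15, 41 and 7 in IRF3-2D liver. These genes were chosen after their values were seen, and no test was made.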
